A study of Mus musculus with 6 samples.

Results

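The BTG and TOB genes encode a small family of antiproliferative proteins. The 5 genes described here, Btg1, Btg2, Btg3, Tob1 and Tob2, were picked by symbol out of the 24041 genes of the deposited table, and all 5 were found. They were followed in 6 RNA libraries of mouse cerebral cortices, in which cells took up plasmids by electroporation and were sorted by their green fluorescent protein (GFP). The 3 wild-type libraries came from cells given GFP with wild-type PRPF6, and the 3 mutant libraries from cells given GFP with mutant PRPF6, so both groups carried a PRPF6 plasmid and neither lacked one. PRPF6 is a protein of the spliceosome. The labels give neither the mutation, the species of the PRPF6 sequence, the promoter of the plasmids nor the age and strain of the animals, and they do not say whether the libraries of a group came from separate animals. The spread between libraries may therefore be partly technical.

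Proteins of this family share an amino-terminal BTG domain that binds the CAF1 subunits (CNOT7 and CNOT8) of the CCR4-NOT deadenylase, the complex that shortens the poly(A) tails of messenger RNA. Through that contact, and through transcriptional partners, BTG and TOB proteins slow the passage from G1 to S phase. In the developing cortex Btg2, also known as Tis21 and Pc3, is known as the mark of progenitors that are about to produce neurons, and in many cells it is a target of the tumour suppressor p53 and an immediate early gene. Btg1 is closely related and is switched on in quiescent cells, among others by FOXO factors.

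The members were proposed with results of the same comparison already known, the Btg2 values among them. Their differences between mutant and wild-type PRPF6 are therefore a description and carry no test of their own. The total expected counts were 45115122 to 60600617 per library, and values are given as CPM, counts scaled by the library total and its TMM factor. Values of a group are always listed in the order of replicates 1, 2 and 3, and wild type stands before mutant. In a fit over 14451 genes with edgeR's quasi-likelihood test, 0 genes passed an adjusted p of 0.05 (0% called) and 489 stood at an unadjusted p under 0.05 (3.38%). limma-voom passed 0 genes (3.86% at an unadjusted p under 0.05), and DESeq2 passed 6, or 0.104% of the 5756 to which it gave an adjusted p (4.49% at an unadjusted p under 0.05). Of the 5 members 0 passed, and 1, Btg2, stood at an unadjusted p under 0.05. Prpf6 itself ranged from 124 to 166 CPM in the wild-type and from 125 to 145 CPM in the mutant libraries, and counts per gene do not separate plasmid from endogenous transcripts.

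Btg2 had the clearest separation of the groups among the 5 members, Btg1, Tob1 and Tob2 overlapped between the groups, and Btg3 had a row that cannot be read on its own. The fitted mean was higher with mutant PRPF6 in 5 of 5 members, with a median log2 difference of 0.36, against 49.8% of all tested genes and a median of −0.0013. In 1 member, Btg2, the mutant libraries were all higher than any wild-type library, as in 4.62% of all tested genes, and in 0 members all lower, against 4.52% (9.14% in either direction). A log2 difference of at least 0.58 in size was seen in 2 members, Btg2 and the Btg3 row, and in 22.6% of all genes. With the reads of its copy Gm7334 added, as described below, Btg3 was at 0.19. That value was then the median of the 5 members, and only Btg2 reached 0.58.

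**Figure D1:**
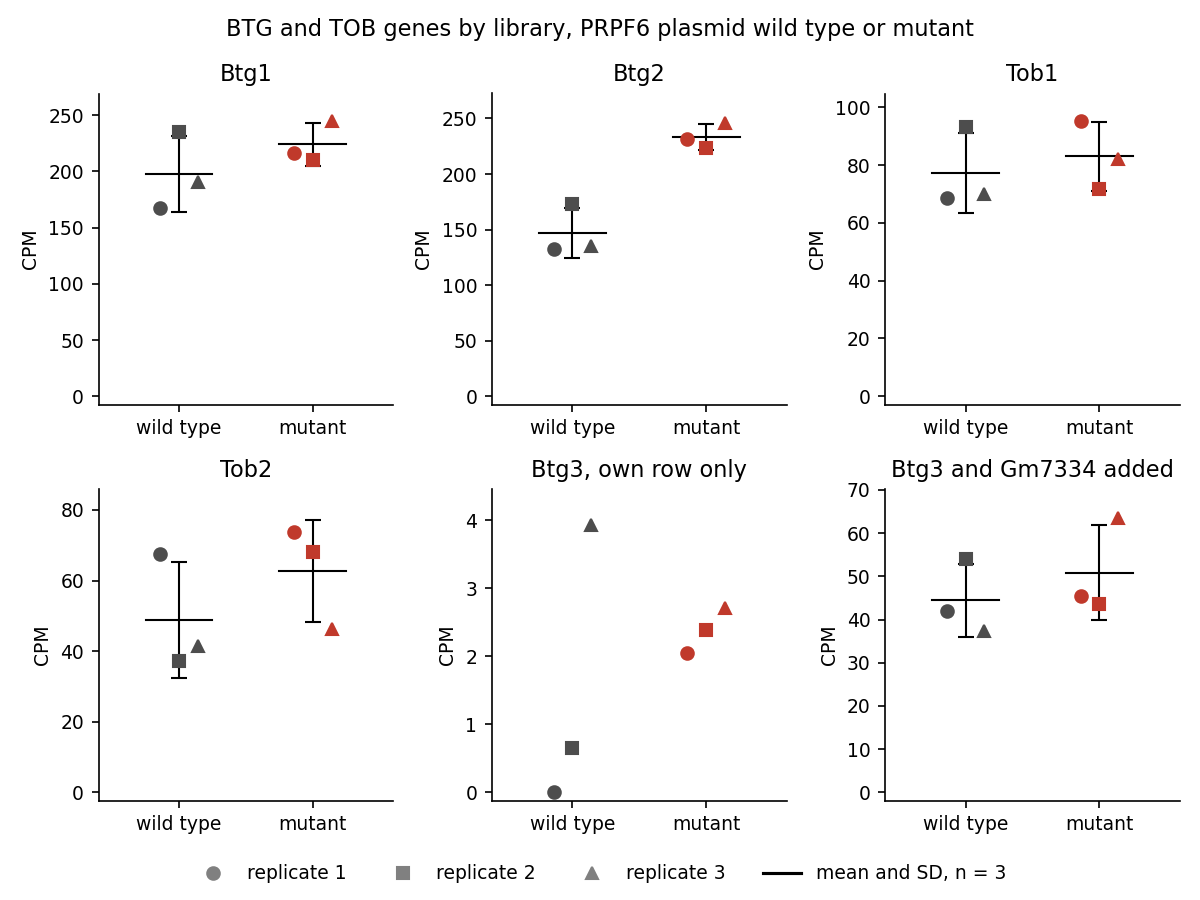
CPM of each member by library, with wild-type libraries in grey and mutant libraries in red; horizontal lines and bars give the mean and SD of 3 libraries, and the panel of the Btg3 row has none because 1 library is listed at 0. Mutant Btg2 values of 223 to 246 CPM sit above wild-type values of 132 to 173 CPM, and the groups overlap in the other panels.

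Btg2 (chromosome 1, 134075170 to 134079120, minus strand, GENCODE M21 on GRCm38) is a gene of 2 exons. With wild-type PRPF6 it stood at 132, 173 and 135 CPM, from 6158, 10533 and 6764 counts. With mutant PRPF6 it stood at 232, 223 and 246 CPM, from 13462, 11112 and 10795 counts. The lowest mutant library was thus above the highest wild-type library, and the mutant values were the closer together, with a coefficient of variation of 4.98% against 15.5%. The group means of 147 ± 22.7 and 234 ± 11.6 CPM (SD, n = 3 each) differed by 0.67 ± 0.16 on the log2 scale (SE), or 1.59-fold. Leaving out any 1 library moved this value between 0.60, without wild-type replicate 1, and 0.80, without wild-type replicate 2.

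Btg1 (chromosome 10, 96617006 to 96622809, plus strand), the closest relative of Btg2 in its role, stood at 167, 235 and 191 CPM with wild-type PRPF6. With mutant PRPF6 it stood at 217, 210 and 245 CPM. Wild-type replicate 2 lay above 2 of the mutant libraries, so the groups overlapped. The means were 198 ± 34.2 and 224 ± 18.8 CPM (SD, n = 3 each), and the log2 difference was 0.18 ± 0.17 (SE). It ran from 0.073 without wild-type replicate 1 to 0.32 without wild-type replicate 2. Both genes were highest in replicate 2 among the wild-type libraries and highest in replicate 3 among the mutant libraries.

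A ratio of 2 genes within a library does not depend on how libraries are scaled. Btg2 was chosen with its values known, and the log2 differences of Btg1 and Tob1 were small. Ratios of Btg2 to these genes, and its share of the family, therefore largely restate its own difference and are no separate evidence. For each Btg1 count there were 0.790, 0.736 and 0.707 Btg2 counts with wild-type and 1.07, 1.06 and 1.00 with mutant PRPF6. The groups did not overlap, with means of 0.744 ± 0.0420 and 1.05 ± 0.0363 (SD, n = 3 each). Within each group this ratio varied less than the CPM of Btg1. For each Tob1 count there were 1.93, 1.85 and 1.93 Btg2 counts with wild-type and 2.43, 3.11 and 3.00 with mutant PRPF6, again without overlap. Against Tob2 the groups overlapped. Wild-type replicate 2 had 10533 Btg2 and 2270 Tob2 counts, and mutant replicate 1 had 13462 and 4288. How often ratios of other gene pairs separate the groups was not computed. Of all reads of the family, the Btg3 copy Gm7334 included, Btg2 took 28.4% ± 0.750 and 35.7% ± 0.675 (SD, n = 3 each) and Btg1 38.3% ± 2.84 and 34.2% ± 1.62.

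**Figure D2:**
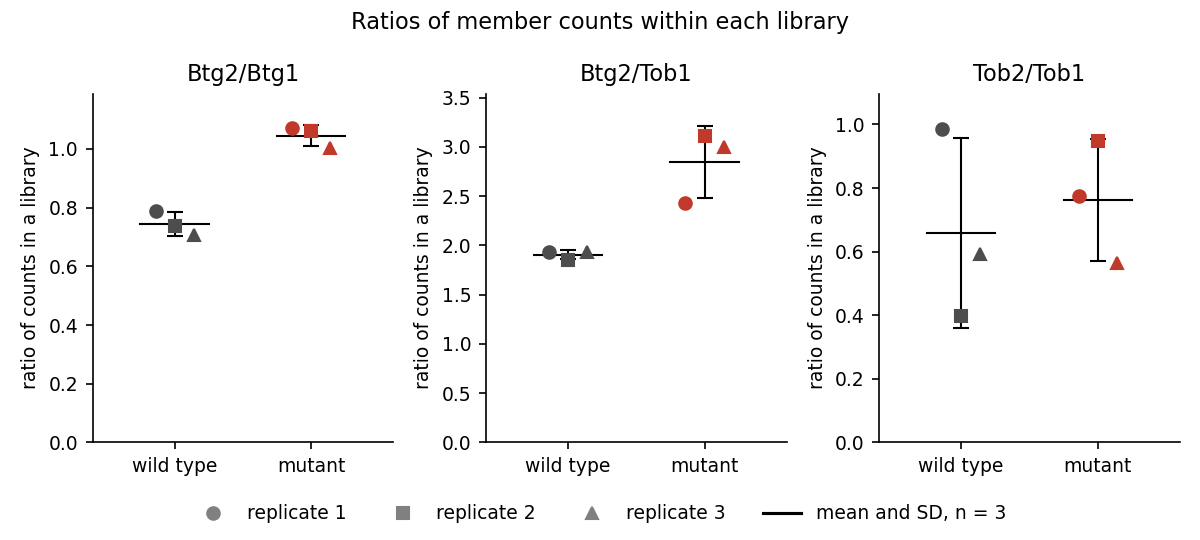
Counts of 1 member divided by counts of another in the same library, with wild-type libraries in grey, mutant libraries in red, and the mean and SD of 3 libraries in black. The Btg2 to Btg1 ratio is at 0.707 to 0.790 in wild-type and at 1.00 to 1.07 in mutant libraries, while the Tob2 to Tob1 ratio overlaps. The Btg2 ratios shown largely restate the difference of Btg2 itself.

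Reads of Btg1 and Btg2 can be told apart although the coding sequences are alike. Over 470 aligned coding bases 68.7% were identical, but the longest exact run shared by the 2 transcripts was 20 bases. By that measure every pair of members lay between 62.0% and 71.0%. Of all alignment columns, gaps included, 62.5% were identical in this pair, 61.2% in Tob1 and Tob2, and 28.7% to 42.2% in the other pairs. All 6 libraries list both genes at whole counts, so no count there shows a fractional share. Whole counts alone do not exclude shared reads given wholly to 1 gene. The most alike stretch of 60 coding bases, which differs at 8 positions, is shown with the differing bases in capitals. The Btg1 stretch covers coding bases 313 to 372 (chr10:96618440-96618499, plus strand) and the Btg2 stretch coding bases 307 to 366 (chr1:134077480-134077539, minus strand).
Btg1: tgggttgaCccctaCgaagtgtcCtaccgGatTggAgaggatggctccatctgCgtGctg
Btg2: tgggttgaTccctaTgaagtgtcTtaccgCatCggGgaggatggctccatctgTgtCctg

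The promoters of the 2 genes also differ in the motifs they hold. RefSeq promoter windows on GRCm38.p6, from 250 bases before to 50 bases after the start site, were found for all 5 members (Btg3 had 2), and those of Btg1 (chr10:96616751-96617050, plus strand) and Btg2 (chr1:134079106-134079405, minus strand) are shown because Btg1 is the nearest relative of Btg2 in role and their ratio is among those without overlap between the groups. Capitals mark, on either strand, a FOXO motif, a CCAAT box (both in reverse complement) and a TATA box in Btg1, and 2 CCAAT boxes and the cAMP response element in Btg2. Matches to the GC box are left in lower case.
Btg1: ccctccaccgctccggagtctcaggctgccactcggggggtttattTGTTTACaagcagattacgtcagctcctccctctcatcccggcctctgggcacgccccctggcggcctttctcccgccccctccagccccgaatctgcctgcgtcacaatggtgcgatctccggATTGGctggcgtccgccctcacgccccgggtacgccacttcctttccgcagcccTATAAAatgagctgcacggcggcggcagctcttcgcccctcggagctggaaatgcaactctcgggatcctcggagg
Btg2: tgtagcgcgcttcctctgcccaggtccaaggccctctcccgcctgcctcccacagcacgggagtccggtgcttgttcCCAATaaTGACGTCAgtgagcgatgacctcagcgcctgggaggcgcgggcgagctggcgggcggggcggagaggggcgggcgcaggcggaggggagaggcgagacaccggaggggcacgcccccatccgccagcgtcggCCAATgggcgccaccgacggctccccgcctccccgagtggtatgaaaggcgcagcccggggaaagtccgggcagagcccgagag

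Among 32851 promoter windows of that length, 1.79% held the cAMP response element TGACGTCA and 3.65% the FOXO motif GTAAACA, on either strand. The CCAAT box was in 37.4%, the TATA box (TATAAA) in 13.6% and the GC box (GGGCGG) in 35.7%. Of the 5 members only Btg2 had TGACGTCA and only Btg1 the FOXO motif. The cAMP response half-site TGACG, found in 20.8% of all windows, also occurred in the windows of Btg1 and Tob1. With the first transcribed base as 0, the Btg2 element spans −166 to −159 and the Btg1 FOXO motif −204 to −198. No member window held an exact match to the decamer of the p53 response element, found in 8.36% of all windows, or to the serum response element, in 1.63%. A match describes the letters and not binding. Only exact matches were counted, so a window without a match may still hold a site that departs from these letters. The windows are short, and elements outside them were not searched.

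Btg3 (chromosome 16, 78332637 to 78377192, minus strand), the family member also called ANA, was listed at 0, 39.53 and 196.61 expected counts with wild-type PRPF6. With mutant PRPF6 it was listed at 118.71, 118.48 and 118.9. In CPM these were 0, 0.649 and 3.92 with wild-type and 2.04, 2.38 and 2.71 with mutant PRPF6. The wild-type values lay on both sides of the mutant values. The fitted log2 difference of 0.63 had an SE of 1.70, and it ran from 0.054 without wild-type replicate 1 to 2.85 without wild-type replicate 3.

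Most reads of this sequence stood under another name. Gm7334 (chromosome 17, 50698688 to 50699443, plus strand) is a processed pseudogene, a copy of a spliced messenger RNA put back into the genome. All 756 bases of its GENCODE transcript were identical to coding bases 1 to 756 of Btg3, the whole of the coding sequence without its stop codon. Of the 31-base words of the main Btg3 transcript, 52.5% also occur in Gm7334, against 4.22% of Btg1, 0% of Btg2, 0.266% of Tob1 and 0.0971% of Tob2 words found in any other gene. The first 120 bases, the same in both loci, are shown with the start codon in capitals (chr17:50698688-50698807, plus strand, for the copy).
Gm7334: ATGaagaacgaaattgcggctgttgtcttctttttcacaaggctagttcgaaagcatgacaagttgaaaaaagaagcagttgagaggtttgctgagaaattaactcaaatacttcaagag

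Gm7334 was listed at 1956, 3247.47 and 1677.39 expected counts with wild-type and at 2520.29, 2055.52 and 2667.1 with mutant PRPF6. Added to Btg3 these gave 1956, 3287, 1874, 2639, 2174 and 2786, a whole number in each of the 6 libraries. Among the genes of the table with a count that was not whole, Gm7334 was the 1 gene with that property (tolerance 0.015). The reads that RSEM, the counting program, divided between genes were thus divided between these 2 rows. Btg3 received 0% to 10.5% of the sum in wild-type and 4.27% to 5.45% in mutant libraries. RefSeq annotates Gm7334 as a transcribed pseudogene of 1368 bases, and which locus the reads came from cannot be told apart from these counts.

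**Figure D3:**
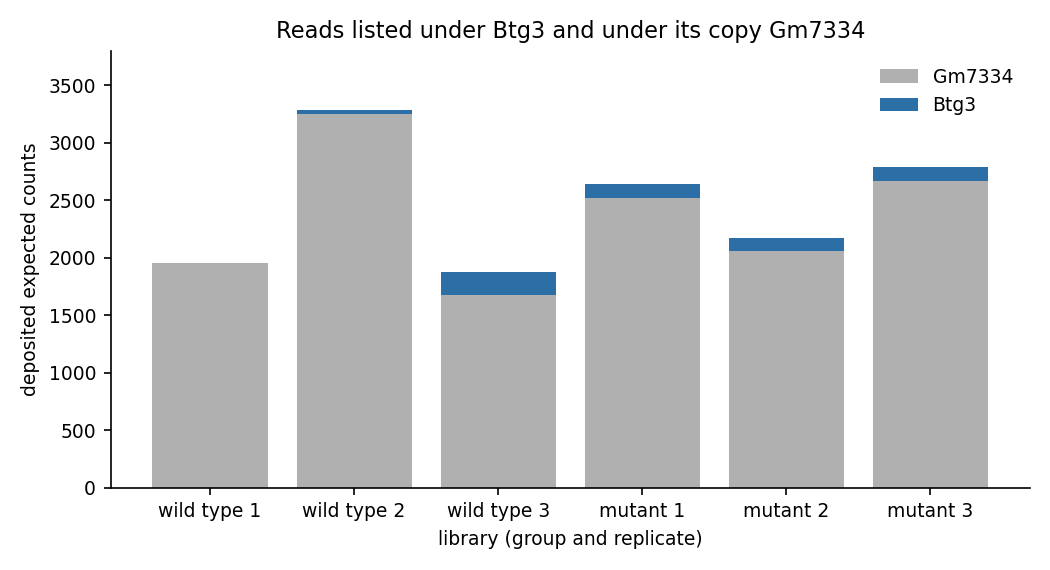
Deposited expected counts of Btg3 (blue) stacked on those of its copy Gm7334 (grey) in each library, not scaled for depth. The sum runs from 1874 to 3287, and the Btg3 share of it is 0 in wild-type replicate 1 and highest, at 10.5%, in wild-type replicate 3.

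With both rows added, a choice made after the values were seen, the level was 42.0, 53.9 and 37.4 CPM with wild-type and 45.4, 43.7 and 63.5 CPM with mutant PRPF6. The groups overlapped, and mutant replicate 3 was the highest library. The log2 difference was 0.19 ± 0.24 (SE, 3 libraries a group), against 0.63 ± 1.70 for the Btg3 row alone. Leaving out 1 library gave 0.0015, without mutant replicate 3, to 0.35, without wild-type replicate 2.

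Tob1 (chromosome 11, 94211454 to 94215495, plus strand) encodes a protein whose long carboxy-terminal part binds poly(A)-binding protein, so that it links tail and deadenylase, and which also binds SMAD factors. It stood at 68.5, 93.3 and 69.8 CPM with wild-type and at 95.4, 71.7 and 82.1 CPM with mutant PRPF6. Each group held a library near 70 CPM and a library above 93 CPM. The log2 difference was 0.10 ± 0.20 (SE), and ran from −0.0067 without mutant replicate 1, where its sign turned, to 0.26 without wild-type replicate 2.

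Tob2 (chromosome 15, 81848272 to 81858796, minus strand), the second TOB gene, stood at 67.5, 37.2 and 41.4 CPM with wild-type PRPF6. With mutant PRPF6 it stood at 73.8, 68.0 and 46.3 CPM. Wild-type replicate 1 lay beside the 2 higher mutant libraries, and the groups overlapped. The log2 difference was 0.36 ± 0.29 (SE), between 0.20 without wild-type replicate 2 and 0.67 without wild-type replicate 1. An antisense gene, Gm49476, overlaps Tob2, and since the strand setting of the counting is not given, its reads could be counted there.

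The TOB genes did not keep a fixed proportion to each other. For each Tob1 count there were 0.985, 0.399 and 0.593 Tob2 counts with wild-type and 0.774, 0.948 and 0.564 with mutant PRPF6. Across the wild-type libraries Tob2 had a coefficient of variation of 33.6%, against 15.5% to 18.1% for Btg1, Btg2 and Tob1. The coding sequences of Tob1 and Tob2 were identical at 71.0% of 982 aligned bases, with no shared exact run above 17 bases. Their most alike stretch of 60 coding bases, coding bases 269 to 328 in both, lies at chr11:94213908-94213967 (plus strand) in Tob1 and at chr15:81851439-81851498 (minus strand) in Tob2, and is shown with the 9 differing bases in capitals.
Tob1: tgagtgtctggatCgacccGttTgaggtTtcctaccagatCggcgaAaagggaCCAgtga
Tob2: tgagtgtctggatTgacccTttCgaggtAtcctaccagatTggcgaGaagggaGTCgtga

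**Figure D4:**
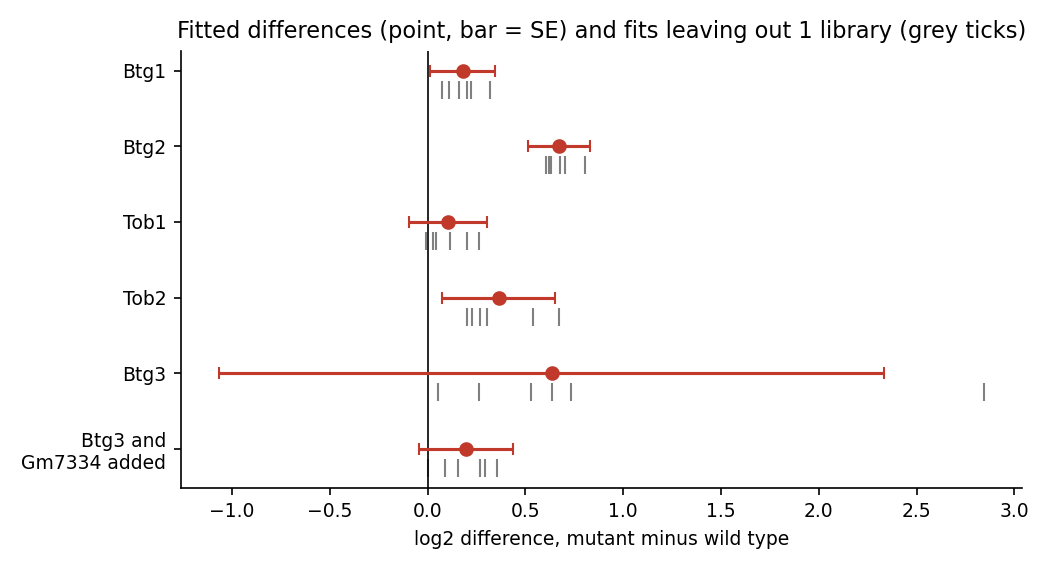
Fitted log2 difference of each member, mutant minus wild type (red point, bar = SE), with the values of the 6 fits that leave out 1 library as grey ticks. The Btg2 ticks lie between 0.60 and 0.80, and the bar of the Btg3 row, with an SE of 1.70, is the widest.

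Levels of different genes can be compared only per length. In CPM per kilobase of the transcript with the longest coding sequence, the order with wild-type PRPF6 was Btg2 (53.5 ± 8.26), Btg1 (39.5 ± 6.84), Tob1 (33.7 ± 6.09), Btg3 with Gm7334 (31.4 ± 6.03) and Tob2 (11.7 ± 3.95; SD, n = 3 each). With mutant PRPF6 it was Btg2 (85.2 ± 4.25), Btg1 (44.8 ± 3.75), Tob1 (36.3 ± 5.19), Btg3 with Gm7334 (36.0 ± 7.78) and Tob2 (15.1 ± 3.49). With the Gm7334 reads counted to Btg3, Btg2 was the highest and Tob2 the lowest of the 5 in both groups. Neither overlapped with its neighbour in that order. The Btg3 row alone lay below Tob2 in every library. The sum of both rows was divided by the length of Btg3, while the Gm7334 transcript has 756 bases. The place of Btg3 in the order thus depends on the locus of the reads, which these counts cannot tell, and on the length used. Tob1 and Btg3 with Gm7334 overlapped in both groups, and Btg1 and Tob1 overlapped in the wild-type libraries. The lengths used were 5001 bases for Btg1, 2743 for Btg2, 1414 for Btg3, 2288 for Tob1 and 4151 for Tob2, and the authors' annotation may differ.

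Other genes of the family were close to silent. Btg4, the member known from the oocyte, was listed at 0 counts in all 6 libraries, which allows up to 0.0492 to 0.0684 CPM by the limit of 3 counts. The X-linked relatives of Btg1 were listed at 0 counts in all libraries (4930525M21Rik, now Btg1b) and at 2 counts in mutant replicate 2 and 0 elsewhere (4930430D24Rik, now Btg1c). These limits cover counting error only, since amplified reads are not independent molecules.

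Around the family, gene lists were compared as counts of genes with higher and lower fitted means, and 0 genes of any list passed the edgeR test over all genes (0% called). The deadenylases and poly(A)-binding proteins that BTG and TOB proteins work with had a higher fitted mean in 6 and a lower one in 11 of 17 genes, with a median log2 difference of −0.12. Of these 17, the mutant libraries were without overlap below the wild-type ones in 5 and above them in 1, against 4.52% and 4.62% of all tested genes. Cnot7, a CAF1 nuclease bound by the BTG domain, averaged 233 ± 1.00 and 215 ± 24.4 CPM, and its paralogue Cnot8 171 ± 8.97 and 154 ± 8.87 CPM (SD over 3 libraries). Pan3, the adaptor of the other deadenylase of this list, stood at 21.3, 20.6 and 19.5 CPM against 9.50, 16.1 and 15.7 CPM, and its nuclease partner Pan2 averaged 84.2 ± 10.9 and 107 ± 17.8 CPM. The nuclease and adaptor thus differed in sign, with log2 differences of 0.35 ± 0.19 for Pan2 and −0.57 ± 0.33 for Pan3 (SE).

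The other binding partners, with the CPEB and SMAD proteins, were split into 7 higher and 5 lower of 12 tested genes (median 0.041). Prmt1, the arginine methyltransferase bound by BTG1 and BTG2, was at 476 ± 47.4 and 467 ± 114 CPM (SD, n = 3 each), and the sign of its difference turned when single libraries were left out. Cpeb2, which binds messenger RNA and controls its tail, was at 18.2 ± 2.44 and 13.7 ± 1.37 CPM, and Smad6, an inhibitory SMAD, at 18.3 ± 2.62 and 24.5 ± 10.3 CPM. Genes of G1 phase were split into 9 higher and 9 lower of 18 (median −0.0048). Ccnd1, the cyclin D1 gene that Btg2 is known to repress, was at 62.5 ± 13.3 and 73.0 ± 20.6 CPM, and the groups overlapped. Id2, an inhibitor of differentiation, was at 160 ± 46.5 and 108 ± 25.2 CPM.

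Lists of genes that share a class or a regulator with Btg2 held members of both signs. Of p53 and its targets, 14 of 19 tested genes had a higher and 5 a lower fitted mean (median 0.26), and without wild-type replicate 3 the median was 0.69. Of the 19, 8 were higher at an unadjusted p under 0.05 (2.18% of all genes) and 0 lower (1.2%). The mutant libraries were all above the wild-type ones in 4 (4.62% of all genes) and all below in 0 (4.52%). Cdkn1a, the p21 inhibitor of cyclin-dependent kinases, was at 14.2, 19.6 and 32.2 CPM against 58.4, 28.3 and 43.3 CPM. Mutant replicate 2 lay below wild-type replicate 3, so the groups overlapped in Cdkn1a. Ccng1, the cyclin G1 gene, was at 45.6 ± 13.7 and 108 ± 50.6 CPM, and the nuclease gene Aen at 51.2 ± 6.08 and 102 ± 30.1 CPM. In both, all mutant libraries lay above the wild-type ones, and replicate 2 was the lowest mutant library. Trp53, which encodes p53 itself, was at 169 ± 22.8 and 192 ± 33.5 CPM (SD, n = 3 each). This list had been seen to be higher in earlier work on these data, so its counts are no separate evidence.

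Immediate early genes, the other class to which Btg2 belongs, had a higher fitted mean in 7 and a lower one in 13 of 20 tested genes (median −0.23). Without wild-type replicate 3 11 were higher (median 0.0050). Zfp36l1, a protein that hastens decay of messenger RNA, was at 92.2 ± 22.0 and 128 ± 20.9 CPM and the phosphatase gene Dusp1 at 175 ± 51.9 and 130 ± 28.7 CPM. FOXO factors and their targets, the class of Btg1, were 1 higher and 9 lower of 10 (median −0.22), and 5 higher without wild-type replicate 3. Klf4 was at 5.43 ± 2.70 and 2.30 ± 0.97 CPM, and Irs2 at 139 ± 16.5 and 176 ± 88.7 CPM (SD, n = 3 each).

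**Figure D5:**
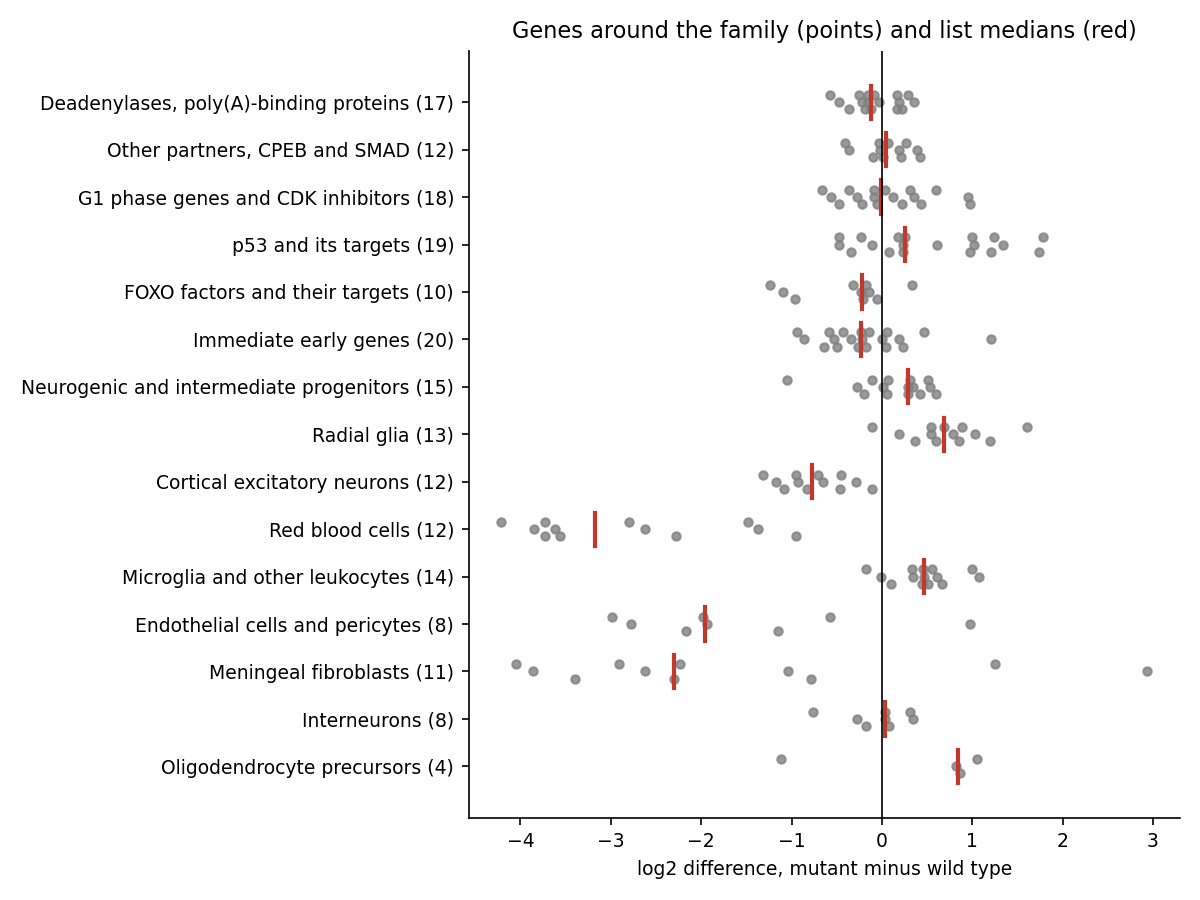
Log2 differences, mutant minus wild type, of the tested genes of each list (grey points, number of genes in brackets) and the list median (red line). Medians of partners and G1 genes lie between −0.12 and 0.041, those of progenitor and p53 lists above 0, and those of excitatory neurons and red blood cells at −0.77 and −3.18.

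Markers of cortical cell types also differed in fitted mean. In bulk RNA, fewer cells of a type and less RNA per cell cannot be told apart. Radial glia markers, those of the neural stem cells, had a higher fitted mean in 12 of 13 genes (median 0.69, and 0.40 without mutant replicate 1) and summed to 2164 to 3194 CPM in wild-type and 3058 to 5362 CPM in mutant libraries. Neurogenic and intermediate progenitor markers, the cells in which Btg2 is best known, were higher in 11 of 15 (median 0.29, and 0.029 without mutant replicate 3) and summed to 2305 to 3278 and 2685 to 3901 CPM. Excitatory neuron markers were lower in 12 of 12 (median −0.77, and −0.45 without mutant replicate 1) and summed to 3347 to 4731 and 1563 to 3435 CPM. Their part in the Btg2 difference was not tested. In mutant replicate 2 the summed radial glia, progenitor and neuron markers were at 3058, 2685 and 3435 CPM, inside the wild-type ranges. The radial glia sum lay near the highest wild-type value and the neuron sum near the lowest.

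Of the single genes of these lists, Sox9, a stem cell factor, was at 275 ± 50.5 and 510 ± 89.3 CPM, Mfng, a Notch-modifying enzyme of progenitors, at 88.2 ± 13.6 and 126 ± 27.3 CPM, and Snap25, a synaptic gene, at 72.6 ± 15.4 and 34.4 ± 11.7 CPM (SD, n = 3 each). Markers of cells outside the cortical lineage varied widely between libraries. Red blood cell markers were lower in 12 of 12 genes (median −3.18, and −1.35 without wild-type replicate 3) and summed to 994 to 17108 CPM in wild-type and 81.8 to 1601 CPM in mutant libraries, with wild-type replicate 3 the highest. Hbb-bt and Hbb-b2 had identical counts in every library, and several other globin genes had counts that were not whole. The 12 genes are therefore not 12 separate signals. Meningeal fibroblast markers were lower in 9 of 11 (median −2.30, and −0.43 without wild-type replicate 3), and summed to 1678 CPM in that library and to 38.0 to 190 CPM in the others. Microglia and leukocyte markers were higher in 12 of 14 (median 0.46) and summed to 149 to 410 CPM in wild-type libraries, 1108 CPM in mutant replicate 2 and 40.9 and 66.9 CPM in mutant replicates 1 and 3. Endothelial and pericyte markers were lower in 7 of 8 (median −1.96; 6.25 to 235 CPM), interneuron markers higher in 5 of 8 (median 0.035; 141 to 874 CPM) and oligodendrocyte precursor markers higher in 3 of 4 (median 0.84; 13.8 to 180 CPM). Medians changed sign with 1 library left out for the microglia (−2.46 without mutant replicate 2), endothelial (2.44 without wild-type replicate 3), interneuron (−0.42 without mutant replicate 1) and oligodendrocyte precursor lists (−0.53 without mutant replicate 1). With wild-type replicate 3 and mutant replicate 2, the libraries highest in red blood cell and microglia markers, both left out, a choice made after the data were seen, the Btg2 log2 difference was 0.65 ± 0.21 (SE). That choice did not even out the markers. The medians were then −1.17 for excitatory neurons, 0.75 for radial glia, −2.63 for red blood cells and −2.34 for microglia, and 0.076 for endothelial cells.

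The genes most like Btg2 were those with the highest Pearson's r of log2 CPM over the 6 libraries, among 10103 genes compared, all above a floor of 3 in average log2 CPM. They were Asah1, a lysosomal ceramidase (r = 0.989), Pea15a, an adaptor of ERK kinases (0.988), Ints3, an Integrator subunit (0.986), Tapt1, a transmembrane protein gene (0.984), and Rxra, a retinoid receptor (0.980). Spearman's rho was 0.943 for the first 4 and 0.886 for Rxra. In all 5, as in Btg2, no wild-type library reached the lowest mutant library, so r over these 6 points largely restates the difference between groups. Pea15a stood at 381, 511 and 343 CPM against 746, 653 and 822 CPM, with the same order of libraries within the mutant group as Btg2. Rxra was at 19.3, 23.5 and 18.3 CPM and at 36.7, 40.9 and 44.3 CPM. Of all genes compared, 15 had an r of at least 0.95 with Btg2, and likeness over so few libraries is a description.

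The other members had other nearest genes. For Btg1 they were Rpp25l (r = 0.994) and Ifrd2 (0.991), for Tob1 Ccdc53 (0.988) and Nudt13 (0.986), and for Tob2 Afg3l2 (0.983) and Ncoa3 (0.981), each over 6 libraries. For the Btg3 row they were Armc6 (0.991) and Deaf1 (0.986), which follow a row that holds a small share of the reads of its sequence. In all 8 of these genes the mutant and wild-type libraries overlapped, as they did in the members they follow. Between 15 and 26 genes had an r of at least 0.95 with each of the 5 members.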

How the data were processed

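RNA of sorted GFP-positive cells was amplified with a low-input SMART-Seq kit and sequenced as paired ends, per the labels' protocols. Each deposited value is a gene's expected count before any scaling, and RSEM and mm10 are named in the submitters' processing notes. RSEM version, aligner, annotation, strand setting and filters were not given in the sources used here. In each library 8.15% to 9.15% of the values were not whole, because RSEM divides reads that fit several genes. Groups and replicate numbers came from the sample titles.

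Expected counts were rounded, filtered with filterByExpr (14451 of 24041 genes left) and scaled with TMM factors (0.972 to 1.02), and 1 count was worth 0.0164 to 0.0228 CPM. With R 4.3.3 and edgeR 4.0.16, a model of group alone was fitted to all 6 libraries and tested by quasi-likelihood (robust, two-sided), with p adjusted by Benjamini-Hochberg over all genes, with a threshold of 0.05. The fit was also run on simulated data with less spread between libraries and larger differences than the members had. That run does not show what the fit can detect at the spread of these data. CPM and ratios used the unrounded expected counts. Log2 CPM for likeness used a prior count of 2. Alternatives were DESeq2 1.42.0, limma-voom (limma 3.58.1), other scalings and filters, no robust estimation, a replicate block and leaving out each library. Adding Gm7334 to Btg3, and leaving out a pair of libraries, were chosen after the data were seen.

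The members and lists were chosen with earlier results of these data known. Genes to name were the members, Btg4, 6 well-known partners, targets and regulators (Trp53, Cnot7, Cnot8, Prmt1, Ccnd1 and Cdkn1a), the 2 genes of smallest unadjusted p per partner, target or regulator list, 1 per cell list, and the genes nearest to each member (5 for Btg2, 2 for the others). Gm7334 and the X-linked Btg1 relatives were named after their values were seen. Older symbols were matched through RefSeq synonyms, and the list entries Btg1-ps1, Btg3-ps1 and Ahsp were not analysed here under those names. Coordinates and transcripts are those of GENCODE M21 on GRCm38 and promoters those of RefSeq on GRCm38.p6, matched by symbol. Coding sequences were aligned with Biopython 1.88.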

Additional observations from a re-analysis of the deposited data

How the results depend on the processing

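The count of members past an adjusted p of 0.05 was 0 in every setting run. The count over all genes was 0 in every setting but DESeq2, which passed 6, among them 1 gene of the lists, Sox9, and also Pea15a (DESeq2 adjusted p = 0.0235 for both). In DESeq2 Btg2 had an adjusted p of 0.0798, and over all its settings the adjusted p ran from 0.0798 to 1.00. Genes at an unadjusted p under 0.05, 489 with all libraries, numbered 383 to 1016 when 1 library was left out, the highest without mutant replicate 2, and 779 with wild-type replicate 3 and mutant replicate 2 both left out. With the replicate number as a block they numbered 307. The labels do not say whether the numbers mark a shared animal, litter or day, so libraries were not paired in the main fit. The deposited columns of both groups carry the same original numbers. Correlations of deviations over genes were 0.054, 0.061 and −0.256 for same-numbered libraries. With 3 libraries a group these correlations cannot decide whether libraries were paired. With the block the log2 difference of Btg2 was 0.68 and that of the Btg3 row 2.33.

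The log2 differences of Btg1, Btg2, Tob1 and Tob2 moved little under other scalings, filters and tools (0.15 to 0.19, 0.64 to 0.68, 0.079 to 0.11 and 0.35 to 0.43). That of the Btg3 row was 2.83 in limma-voom and 0.19 with Gm7334 added. Signs turned with 1 library left out for Tob1 (−0.0067 without mutant replicate 1 to 0.26), Irs2 (−0.16 without mutant replicate 1 to 0.53), Olig1 (−0.77 without mutant replicate 1), Ccnd1 (−0.014 without mutant replicate 1), Deaf1 (−0.028 without wild-type replicate 1 to 0.34), Rgs5 (2.15 without wild-type replicate 3 to −4.98), Sst (0.017 without wild-type replicate 3 to −2.24), Prmt1 (0.14 without mutant replicate 2, 0.044 without wild-type replicate 2, lowest −0.21) and P2ry12 (−1.08 without mutant replicate 2 to 2.08). With wild-type replicate 3 and mutant replicate 2 both left out, Prmt1 (0.14) and P2ry12 (−1.11) turned and Olig1 and Ccnd1 reached their highest values (1.58 and 0.50). Sst also turned in limma-voom (0.30) and with the block (0.30). The causes of these shifts were not tested. With 3 libraries a group, the median SE of a log2 difference over all genes was 0.341, and the SEs of Btg1 and Tob1 were 0.17 and 0.20. The differences of Btg1 and Tob1, 0.18 and 0.10, were near or below their SE, so differences of that size were not detectable at this spread.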
